A study of Mus musculus with 188 samples.

Results

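Brain slice cultures given 200 μM hemeHpx, heme held by the plasma protein hemopexin, were set against cultures given 50 μM heme-albumin, heme held by albumin, after 24 h. The comparison held 20 of the 188 libraries of the series, 10 from each treatment, chosen by their treatment tags within batch 1. It asks which low dose of albumin-bound heme gives the transcriptome of hemopexin-bound heme. The groups differ in both the heme dose and the carrier protein. No group of batch 1 is labelled as given hemopexin or albumin without heme, so effects of the carrier and of the heme cannot be told apart. The slices were coronal, 150 μm thick, taken from wild-type C57BL/6J mice of 6 to 8 weeks, kept on membrane inserts with 2 slices each, and treated on culture day 7. Both carrier proteins were human, and each group held 5 male and 5 female libraries by the codes in the library names. The other batch 1 groups, used here for scale, were control (Ctrl) and heme-albumin at 12.5, 200 and 400 μM, also with 10 libraries each after 24 h. The study names the loss of microglia during culture as a limit of the model.

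Free heme is a redox-active iron porphyrin that is released when hemoglobin breaks down after bleeding into the brain. Albumin binds it loosely and passes it on to cells, whereas hemopexin binds it very tightly and delivers it through the receptor LRP1. Inside cells heme is opened by heme oxygenase 1 (Hmox1), which frees iron. Heme also removes the repressor BACH1 from antioxidant genes, among them those that supply glutathione, and electrophiles free the activator NRF2 to act on them. Amino acid shortage and other stresses act through a separate factor, ATF4, on genes of amino acid uptake and tRNA charging.

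The library totals ran from 15244938 to 44199060 counts for hemeHpx (median 25519549) and from 14850055 to 35597838 for heme-albumin 50 μM (median 21923334). Y-linked genes matched the sex code in all 60 libraries of the batch, and no pair of libraries within either group was alike within counting noise. All 12 neuron markers, 9 astrocyte markers and 9 oligodendrocyte markers were detected in both groups. Heme-albumin 50 μM replicate 8 stood apart, with a summed neuron marker level of 1403 CPM (counts scaled to the size of the library) against a group median of 628. Some results are also given without it, and it was taken for this because its omission gave the most differing genes. That fit gave 146 genes, against 4 to 32 when any other of the 20 libraries was left out.

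Of 15554 genes tested, 20 (0.129%) differed between hemeHpx and heme-albumin 50 μM at an adjusted p under 0.05 (edgeR quasi-likelihood test, Benjamini-Hochberg adjustment over all genes). Of these, 14 (0.09%) were lower in hemeHpx and 6 (0.0386%) were higher. For 79.5% of the genes the 95% interval of the difference lay within 1.5-fold in either direction, and for 94.3% within 2-fold. A negative difference was found for 49.3% of all genes and an unadjusted p under 0.05 for 13.1%, which are the shares to read the list counts against. The median log2 difference over all genes was 0.0021 and the median standard error 0.095. The genes lower in hemeHpx included Gclm, Slc7a11, Txnrd1 and G6pdx, which serve glutathione, thioredoxin and NADPH supply, and Slc7a5, Slc7a1 and Eprs, which serve amino acid uptake and tRNA charging, and those higher in hemeHpx included the matrix proteoglycan gene Acan. In bulk tissue, fewer cells of a type and less RNA per cell cannot be told apart.

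**Figure D1:**
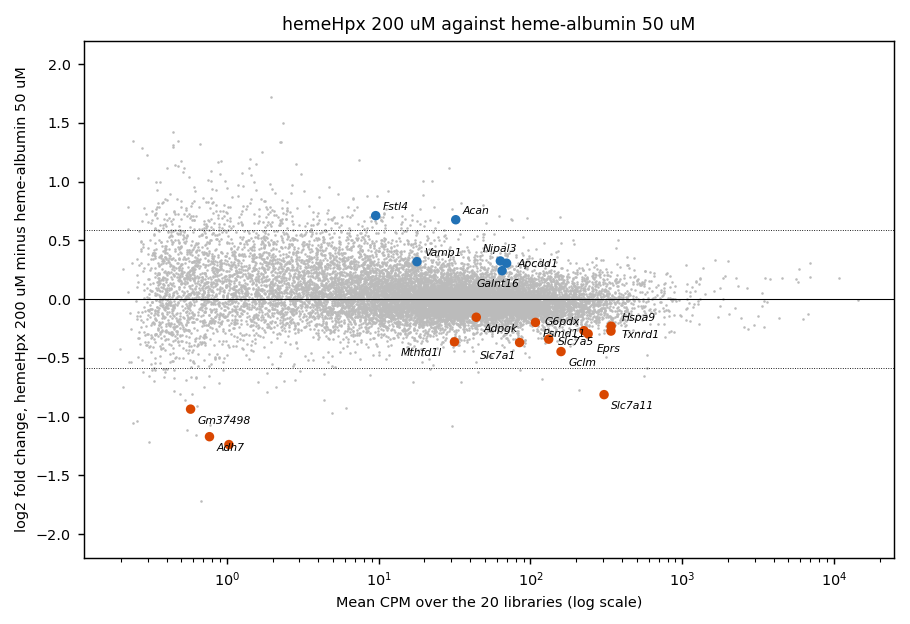
Each point is 1 of 15554 genes, with its mean CPM over the 20 libraries on a log axis and its log2 fold change, hemeHpx 200 μM minus heme-albumin 50 μM. Coloured points are the 20 genes past an adjusted p of 0.05, 6 higher (blue) and 14 lower (orange) in hemeHpx, and dotted lines mark 1.5-fold.

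The promoters of 4 of the genes lower in hemeHpx are shown because these genes serve glutathione, thioredoxin and NADPH supply. They were picked from the genes already called lower. Each sequence is the 250 bases before a RefSeq transcription start in GRCm38.p6, read 5′ to 3′ on the strand of the gene, at chr3:122245307-122245556 (plus strand), chr3:50443614-50443863 (minus strand), chr10:82858956-82859205 (plus strand, the start of 3 that holds a match) and chrX:74428881-74429130 (minus strand). Capitals mark matches on either strand to 1 of 2 motifs searched after the results were known, TGACNNNGC, the core of the antioxidant response element, and TGATGNAA, the core of the amino acid response element.
Gclm: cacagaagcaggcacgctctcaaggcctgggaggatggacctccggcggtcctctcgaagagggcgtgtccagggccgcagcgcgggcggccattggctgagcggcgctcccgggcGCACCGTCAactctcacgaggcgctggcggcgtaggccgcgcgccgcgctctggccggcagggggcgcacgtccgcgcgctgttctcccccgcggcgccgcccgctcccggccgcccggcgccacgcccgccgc
Slc7a11: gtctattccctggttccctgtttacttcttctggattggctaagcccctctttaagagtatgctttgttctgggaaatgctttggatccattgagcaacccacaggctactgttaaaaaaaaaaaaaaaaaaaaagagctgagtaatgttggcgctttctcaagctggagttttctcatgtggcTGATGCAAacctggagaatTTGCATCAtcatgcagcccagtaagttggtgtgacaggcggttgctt
Txnrd1: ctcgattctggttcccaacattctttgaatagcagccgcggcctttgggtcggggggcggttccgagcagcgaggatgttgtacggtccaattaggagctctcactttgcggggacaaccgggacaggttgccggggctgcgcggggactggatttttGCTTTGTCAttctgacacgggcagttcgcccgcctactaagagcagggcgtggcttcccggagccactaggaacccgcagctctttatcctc
G6pdx: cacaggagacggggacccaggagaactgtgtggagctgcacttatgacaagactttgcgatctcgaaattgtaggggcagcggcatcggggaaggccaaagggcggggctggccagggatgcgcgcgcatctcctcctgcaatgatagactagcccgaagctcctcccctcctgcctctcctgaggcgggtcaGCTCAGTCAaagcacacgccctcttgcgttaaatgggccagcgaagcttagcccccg
The windows of Gclm, Txnrd1 and G6pdx each held 1 match to TGACNNNGC, and the Slc7a11 window held 2 matches to TGATGNAA in opposite orientation. Over the 250-base windows of all 27025 genes in the table, 11.5% of genes held the first motif and 3.91% the second. Windows were found for 10 of the 14 lower genes, of which 4 held TGACNNNGC (the fourth was Slc7a1) and 1 held TGATGNAA. Of the 5 higher genes with a window, 1, Vamp1, held TGACNNNGC and 0 held TGATGNAA. A match is a description of letters and not of binding.

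Gclm, the modifier subunit of the enzyme that makes the first step of glutathione synthesis, separated the groups completely. Its levels were 115 (lowest), 134 (median) and 152 CPM (highest) in the 10 hemeHpx libraries and 155, 186 and 206 CPM in the 10 heme-albumin 50 μM libraries. Every hemeHpx library lay below every heme-albumin 50 μM library, which held for 1 gene of all those tested (0.00643%). The log2 difference was -0.45 (SE 0.063, adjusted p = 3.22e-05, edgeR quasi-likelihood test). In Ctrl the median was 119 CPM and at 12.5 μM heme-albumin 150.2 CPM, so that the hemeHpx median of Gclm fell between those of Ctrl and the lowest dose. Against Ctrl, Gclm differed by 0.18 in hemeHpx (SE 0.063, adjusted p = 0.0538) and by 0.63 at 50 μM heme-albumin (adjusted p = 6.02e-10, edgeR).

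Slc7a11, the cystine and glutamate exchanger that brings in the limiting amino acid for glutathione, was lower in hemeHpx than at 50 μM heme-albumin. Slc7a11 was at 152, 214 and 327 CPM (lowest, median, highest) in hemeHpx and at 223, 403 and 620.2 CPM at 50 μM heme-albumin. In 6 hemeHpx libraries the level lay below the lowest heme-albumin 50 μM library, and the groups otherwise overlapped. The log2 difference was -0.81 (SE 0.15, adjusted p = 0.00495, edgeR). Against Ctrl, Slc7a11 was 1.09 higher on the log2 scale at 50 μM heme-albumin (adjusted p = 8.05e-07, edgeR), and the value for hemeHpx was 0.28 (95% interval -0.01 to 0.57, adjusted p = 0.171, edgeR). Gm37498, an unannotated transcript that lies inside Slc7a11 on the same strand, was also lower (-0.94, SE 0.22, adjusted p = 0.0489, edgeR) at a median of 0.37 CPM in hemeHpx and 0.669 CPM at 50 μM heme-albumin. Reads of Gm37498 and Slc7a11 cannot be told apart where they overlap.

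Txnrd1, which encodes cytosolic thioredoxin reductase, was at 258, 309 and 352 CPM in hemeHpx and 316, 369 and 434 CPM at 50 μM heme-albumin (log2 difference -0.27, SE 0.057, adjusted p = 0.0172, edgeR). G6pdx, the X-linked entry enzyme of the pentose phosphate pathway that makes NADPH, was at 183, 204 and 230.3 CPM in hemeHpx and 210.3, 252 and 274 CPM at 50 μM (-0.27, SE 0.058, adjusted p = 0.0252, edgeR). For both genes the groups overlapped, with 8 hemeHpx libraries below the lowest heme-albumin 50 μM library for Txnrd1 and 6 for G6pdx. In the list of 18 NRF2-inducible redox and NADPH enzymes, these 2 members passed the test, both lower in hemeHpx, beside 0.09% of all genes. A negative difference was found for 16 of 18, beside 49.3% of all genes, with a median of -0.19 against 0.0021 over all genes. Srxn1, which repairs oxidized peroxiredoxins, was at a median of 103 CPM in hemeHpx and 128 CPM at 50 μM (-0.33, 95% interval -0.51 to -0.16, adjusted p = 0.137, edgeR). The values of Nqo1 (-0.17, adjusted p = 0.37), Osgin1 (-0.29, adjusted p = 0.307) and Ephx1 (-0.17, adjusted p = 0.136) likewise did not pass the edgeR test. Against Ctrl, 9 of the 18 enzymes were higher in hemeHpx and 14 were higher at 50 μM heme-albumin, beside 3.77% and 0.45% of all genes called higher in those comparisons, which share the Ctrl libraries.

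The list of 19 genes of glutathione synthesis and use held 2 members that passed, Gclm and Slc7a11, both lower in hemeHpx, beside 0.09% of all genes. Its median difference was -0.056, so the list did not lean as a whole. Without heme-albumin 50 μM replicate 8, 10 of the 19 had a negative difference and 9 a positive one. Gclc, the catalytic partner of Gclm, was at 88.4, 113 and 119.7 CPM in hemeHpx and 100.2, 143 and 168 CPM at 50 μM, with 9 heme-albumin 50 μM libraries above the highest hemeHpx library. Its difference was -0.37 (95% interval -0.57 to -0.18, adjusted p = 0.136, edgeR). Gstm1, a glutathione transferase, was at a median of 298 CPM in hemeHpx and 352 CPM at 50 μM heme-albumin (-0.21, adjusted p = 0.313, edgeR). Without heme-albumin 50 μM replicate 8, the adjusted p of Gclc was 0.0242 and that of Ephx1 was 0.0274 in the same edgeR test.

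**Figure D2:**
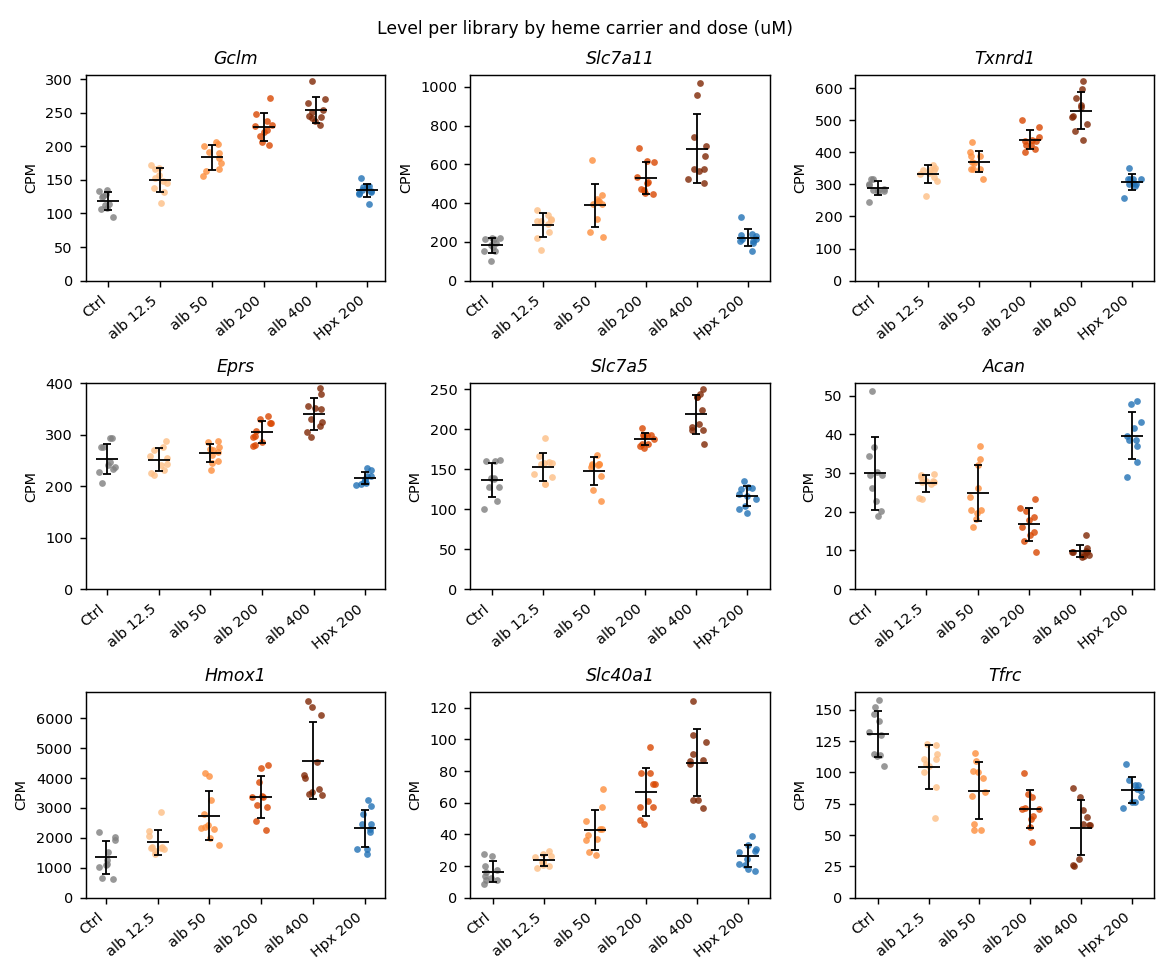
Each point is the level of 1 library in CPM for 9 genes, with 10 libraries in each of 6 groups (Ctrl, heme-albumin at 12.5, 50, 200 and 400 μM, hemeHpx at 200 μM), and the bars give the mean and SD. The hemeHpx libraries of Gclm lie at 115 to 152 CPM, all below those of 50 μM heme-albumin at 155 to 206 CPM, whereas those of Hmox1 and Tfrc overlap with the 50 μM group.

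Of the called genes, Slc7a5 and Slc7a1 carry amino acids, Eprs charges tRNAs and Mthfd1l serves folate metabolism, and all 4 were lower in hemeHpx than at 50 μM heme-albumin. They were grouped after the calls were known and not from a fixed list. Eprs, which charges tRNAs with glutamate and proline, was at 203, 212 and 235 CPM in hemeHpx and 232, 269 and 288 CPM at 50 μM (-0.30, SE 0.056, adjusted p = 0.0102, edgeR). In 8 hemeHpx libraries Eprs lay below the lowest library of the other group. Against Ctrl, whose median was 244 CPM, Eprs was lower in hemeHpx (-0.23, adjusted p = 0.0222, edgeR), and its value at 50 μM heme-albumin was 0.064 (adjusted p = 0.665).

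Slc7a5, the large neutral amino acid carrier, was at 95.4, 118 and 136 CPM in hemeHpx, 109.8, 155 and 167 CPM at 50 μM and a median of 138 CPM in Ctrl. It was lower in hemeHpx than at 50 μM (-0.34, SE 0.074, adjusted p = 0.0252) and lower than in Ctrl (-0.23, adjusted p = 0.0477, both edgeR). Mthfd1l, a mitochondrial enzyme of folate metabolism, showed the same order, with medians of 27.1 CPM in hemeHpx, 35.7 CPM at 50 μM and 33.6 CPM in Ctrl. Its difference was -0.36 against 50 μM (SE 0.076, adjusted p = 0.0172) and -0.26 against Ctrl (adjusted p = 0.0374, edgeR). Slc7a1, the main carrier of cationic amino acids, was at medians of 73.4 CPM in hemeHpx and 93.6 CPM at 50 μM (-0.37, SE 0.081, adjusted p = 0.0276, edgeR). Hspa9, a mitochondrial chaperone, was at medians of 313 CPM and 369 CPM (-0.23, SE 0.053, adjusted p = 0.0474, edgeR).

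Among 20 ATF4 targets, 1 passed, Slc7a5, which was lower (0.09% of all genes were), and 19 had a negative difference (49.3% of all genes did), with a median of -0.17. Asns, the asparagine synthetase, was at 50.4, 57.9 and 67.5 CPM in hemeHpx and 62.01, 73.2 and 84.8 CPM at 50 μM, with 7 hemeHpx libraries below the lowest of the other group (-0.31, 95% interval -0.48 to -0.15, adjusted p = 0.136, edgeR). Slc3a2, the partner chain of both Slc7a5 and Slc7a11, was at medians of 289.5 CPM and 342 CPM (-0.26, adjusted p = 0.181, edgeR). Chac1, a glutathione-degrading enzyme and a sensitive ATF4 target, was at 7.89 CPM and 8.0 CPM (-0.10, 95% interval -0.52 to 0.31). The 1 member with a positive value was the stress factor Atf3, named after its value was seen (0.24, adjusted p = 0.575, edgeR).

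Psmd11, a lid subunit of the proteasome, was lower in hemeHpx (90.3, 100.1 and 109 CPM) than at 50 μM heme-albumin (103, 117 and 126 CPM) (-0.20, SE 0.040, adjusted p = 0.0172, edgeR). Its median in Ctrl was 101 CPM. It was the 1 of 32 proteasome subunits that passed, beside 0.09% of all genes called lower, while 31 had a negative difference, beside 49.3% of all genes, and the list median was -0.097.

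Other lower genes were weakly expressed or changed little. Adh7, an alcohol dehydrogenase, was at medians of 0.415 CPM and 1.08 CPM (-1.17, SE 0.25, adjusted p = 0.0237, edgeR). Adpgk, an ADP-dependent glucokinase, was at 42.1 CPM and 46.9 CPM (-0.15, SE 0.034, adjusted p = 0.0332, edgeR). Adh7, Adpgk and Gm37498 fall outside the rule for named genes and were named after their values were seen.

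All 6 genes that were higher in hemeHpx had a hemeHpx mean above those of Ctrl and of all 4 heme-albumin doses. Acan, which encodes aggrecan, the core of the nets of matrix around neurons, was at 29.04, 39.1 and 48.5 CPM in hemeHpx and 16.03, 22.1 and 37.0 CPM at 50 μM (0.68, SE 0.14, adjusted p = 0.0172, edgeR). In 7 hemeHpx libraries the level exceeded the highest of the other group. Along the heme-albumin series the median of Acan went from 29.5 CPM in Ctrl to 9.53 CPM at 400 μM. Fstl4, a secreted follistatin-like protein, was at 9.36, 11.7 and 14.3 CPM in hemeHpx and 4.72, 7.14 and 9.37 CPM at 50 μM, with 1 library of each group in the narrow overlap (0.71, SE 0.15, adjusted p = 0.0172, edgeR).

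Nipal3, a membrane protein of the NIPA family, was at 60.9, 69.6 and 80.99 CPM in hemeHpx and 51.5, 56.1 and 60.98 CPM at 50 μM (0.33, SE 0.068, adjusted p = 0.0172, edgeR). Its median in Ctrl was 54.6 CPM, and hemeHpx was higher than Ctrl as well (0.35, adjusted p = 0.00554, edgeR), whereas the value at 50 μM against Ctrl was 0.02 (adjusted p = 0.929). Vamp1, a synaptic vesicle protein, was at medians of 19.5 CPM and 16.3 CPM (0.32, SE 0.068, adjusted p = 0.0224, edgeR). Apcdd1, an inhibitor of Wnt signalling, was at 77.9 CPM and 58.2 CPM (0.31, SE 0.069, adjusted p = 0.0389), and Galnt16, a glycosyltransferase, at 69.96 CPM and 59.1 CPM (0.24, SE 0.050, adjusted p = 0.0172, edgeR). Galnt16 and Vamp1 were also above Ctrl in hemeHpx (adjusted p = 0.0163 and 0.0253, edgeR).

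**Figure D3:**
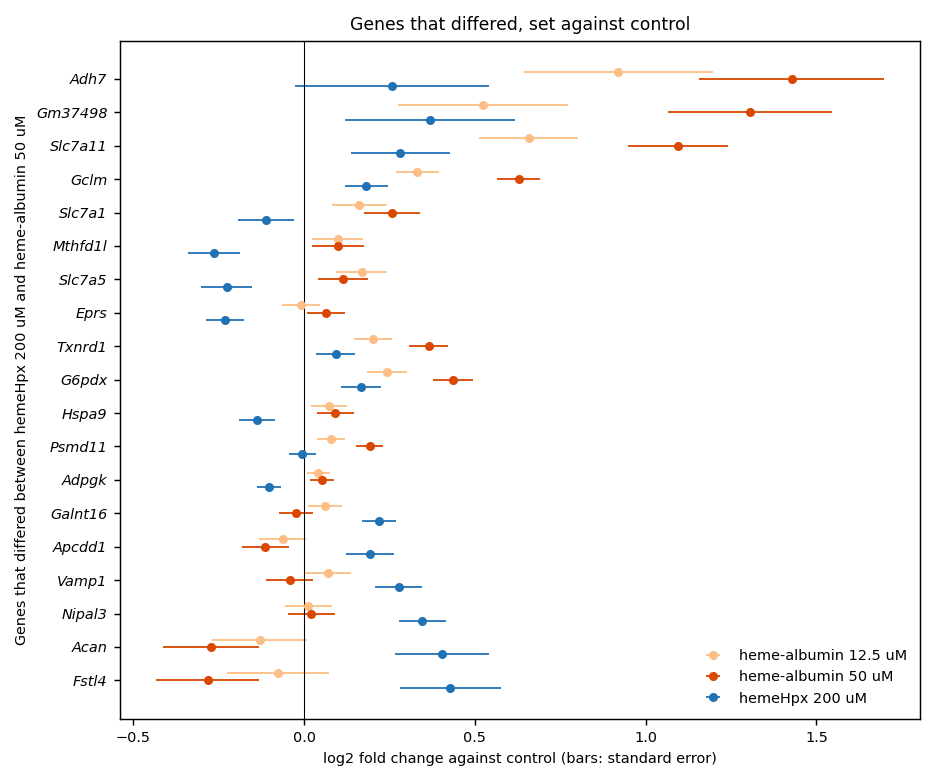
For 19 of the genes that differed between hemeHpx and heme-albumin 50 μM, each row gives the log2 fold change against control at 12.5 μM heme-albumin, 50 μM heme-albumin and 200 μM hemeHpx, with standard errors, over 10 libraries a group. The control libraries are shared between the comparisons. The hemeHpx mean is below control for 7 of the 13 lower genes shown and above all other groups for the 6 higher genes.

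Genes that take up, break down and store heme and its iron did not pass the test between hemeHpx and 50 μM heme-albumin, with 0 of 15 genes of heme breakdown and transport, 0 of 10 of heme synthesis and 0 of 16 of iron handling called. At an unadjusted p under 0.05 there were 2, 3 and 2 such genes, beside 13.1% of all genes. Hmox1 was at 1466, 2379 and 3253 CPM in hemeHpx and 1772, 2386 and 4181 CPM at 50 μM, and the groups overlapped widely. Its log2 difference was -0.24 (95% interval -0.60 to 0.13, adjusted p = 0.519, edgeR), and this interval reaches just past 1.5-fold lower. Against Ctrl, where the median was 1197 CPM, Hmox1 was higher by 0.79 in hemeHpx (adjusted p = 0.0185) and by 1.03 at 50 μM heme-albumin (adjusted p = 0.000414, both edgeR).

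Tfrc, the transferrin receptor, whose mRNA is lost when cell iron is high, was at 71.9, 86.1 and 107 CPM in hemeHpx and 53.9, 89.97 and 115 CPM at 50 μM. The difference of 0.0072 (95% interval -0.31 to 0.32) was within 1.5-fold, and against Ctrl Tfrc was lower in hemeHpx (-0.61, adjusted p = 0.0300, edgeR) with a value of -0.61 at 50 μM (adjusted p = 0.0568). The ferritin subunits Fth1 (-0.13, 95% interval -0.35 to 0.10) and Ftl1 (-0.03, -0.39 to 0.34), the biliverdin reductase Blvrb (-0.11, -0.35 to 0.14) and the hemopexin receptor Lrp1 (-0.06, -0.28 to 0.16) also had intervals within 1.5-fold. Slc48a1, which carries heme out of the lysosome, was at 297, 306 and 364 CPM in hemeHpx and 287, 354 and 437 CPM at 50 μM (-0.17, 95% interval -0.33 to -0.01, adjusted p = 0.37, edgeR). With a correction for GC content and transcript length Slc48a1 was called lower (-0.23, adjusted p = 0.00524, edgeR).

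Slc40a1, the iron exporter ferroportin, had the largest difference of these genes. It was at 16.99, 26.9 and 39.2 CPM in hemeHpx and 27.1, 41.3 and 68.4 CPM at 50 μM, with 5 hemeHpx libraries below the lowest of the other group (-0.71, 95% interval -1.04 to -0.37, adjusted p = 0.067, edgeR). DESeq2 gave Slc40a1 an adjusted p of 0.021 and limma-voom one of 0.0241, and edgeR one of 0.0448 without heme-albumin 50 μM replicate 8. Against Ctrl, Slc40a1 was higher by 0.69 in hemeHpx (adjusted p = 0.0273) and by 1.39 at 50 μM (adjusted p = 1.63e-07, both edgeR). Alas1, the first enzyme of heme synthesis, which heme holds down, was at 47.5, 55.2 and 73.6 CPM in hemeHpx, 41.4, 47.2 and 54.5 CPM at 50 μM and a median of 67.5 CPM in Ctrl. The difference of Alas1 from 50 μM was 0.23 (95% interval 0.11 to 0.35, adjusted p = 0.123, edgeR). Without heme-albumin 50 μM replicate 8, Alas1 was called higher (0.24, adjusted p = 0.0378, edgeR). It was the 1 call among the 10 heme synthesis genes, beside 105 of 15568 genes called higher in that fit.

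**Figure D4:**
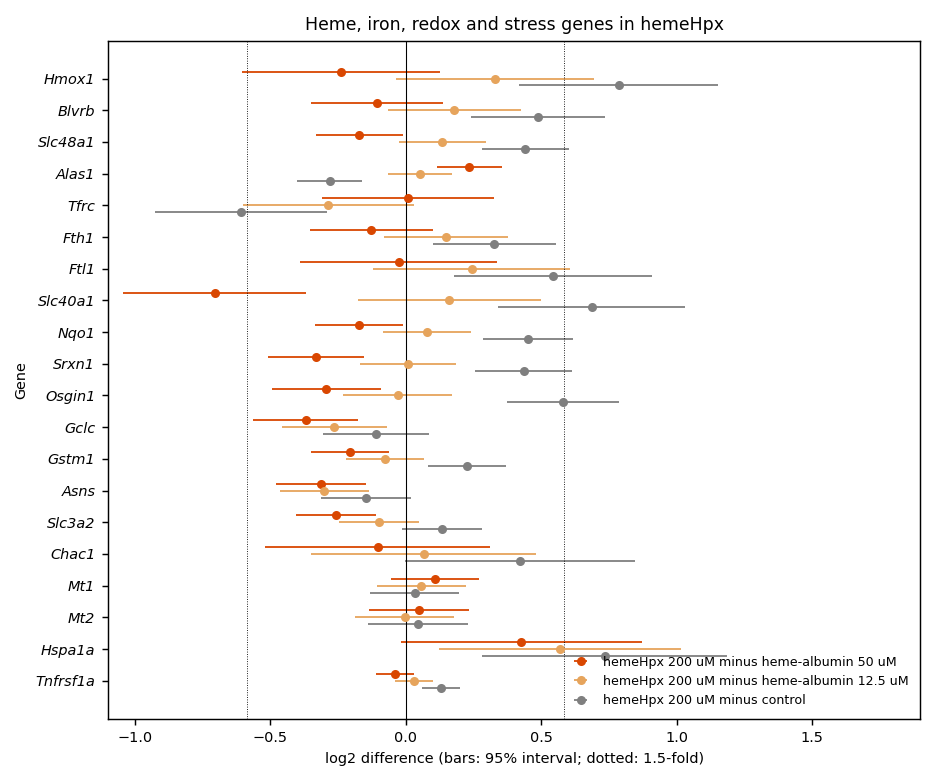
The log2 difference of hemeHpx from 50 μM heme-albumin, from 12.5 μM heme-albumin and from control is drawn for 20 genes of heme, iron, redox and stress, with 95% intervals, and dotted lines mark 1.5-fold. The hemeHpx libraries are shared by the 3 differences. Intervals of Tfrc, Fth1, Ftl1 and Blvrb against 50 μM include 0, and those of Slc40a1 and Srxn1 lie below 0.

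Of the panel genes of stress, cholesterol synthesis and inflammation, Mt1, Mt2, Hspa1a, Hmgcs1, Gpr84 and Tnfrsf1a did not pass between the groups. The metallothioneins Mt1 (0.11, 95% interval -0.06 to 0.27) and Mt2 (0.05, -0.13 to 0.23), the cholesterol synthesis enzyme Hmgcs1 (-0.09, -0.21 to 0.03) and the tumour necrosis factor receptor Tnfrsf1a (-0.04, -0.11 to 0.03) had intervals within 1.5-fold. Hspa1a, the inducible heat shock protein, was at medians of 17.7 CPM in hemeHpx and 13.3 CPM at 50 μM (0.43, 95% interval -0.02 to 0.87). Gpr84, a receptor of activated microglia, was at medians of 2.86 and 2.98 CPM (-0.04, -0.62 to 0.54), and 1 library of each group reached 14.1 CPM. In the list of 20 inflammatory genes 0 were called and 1 had an unadjusted p under 0.05, and among 10 interferon-stimulated genes both numbers were 0.

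Set against each dose of heme-albumin, hemeHpx differed from 12.5 μM in 1 gene (0.00643%), from 50 μM in 20, from 200 μM in 4022 (25.9%) and from 400 μM in 5082 (32.7%). The gene that differed from 12.5 μM was Slc7a5, lower in hemeHpx (-0.39, SE 0.074, adjusted p = 0.0267, edgeR), with a median of 157 CPM at that dose. At an unadjusted p under 0.05 there were 1734 genes against 12.5 μM and 2045 against 50 μM, and DESeq2 called 6 and 33. The 95% interval lay within 1.5-fold for 79.7% of genes against 12.5 μM, 79.5% against 50 μM, 72.4% against 200 μM and 71.3% against 400 μM. Gclm differed from 12.5 μM by -0.15 (95% interval -0.27 to -0.02), Hmox1 by 0.33 (-0.04 to 0.69), Slc40a1 by 0.16 (-0.18 to 0.50), Tfrc by -0.29 (-0.60 to 0.03) and Srxn1 by 0.0074 (-0.17 to 0.18).

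Where hemeHpx fell on the dose series was described over 447 genes that 200 μM heme-albumin changed against Ctrl by at least 1.5-fold, among the 13.6% of genes called there, a comparison that holds no hemeHpx library. Of the 122 genes raised there, 49.2% had a hemeHpx mean nearest to that at 12.5 μM, 18.9% nearest to Ctrl, 18.9% nearest to 50 μM and 9.02% nearest to 200 μM. Of the 325 genes lowered there, 60.6% were nearest to Ctrl, 23.1% to 12.5 μM and 14.5% to 50 μM. For 143 of these 325 the hemeHpx mean lay above Ctrl, opposite to the change at 200 μM. The same held for 15 of the 122 raised genes, whose hemeHpx mean lay below Ctrl. A mean beyond Ctrl can count as nearest to Ctrl, so this share is not a measure of likeness to untreated slices. The raised genes stood above Ctrl by a median of 0.30 in hemeHpx, 0.28 at 12.5 μM and 0.43 at 50 μM on the log2 scale, and the lowered genes by -0.02, -0.20 and -0.26. The panel genes did not share 1 dose. The means of Hmox1, Tfrc, Ftl1, Blvrb and Gpr84 in hemeHpx were nearest to 50 μM. Those of Fth1, Slc48a1, Slc40a1, Alas1, Srxn1, Osgin1, Nqo1, Gclm, Gstm1, Mt2, Chac1 and Hmgcs1 were nearest to 12.5 μM. That of Hspa1a was nearest to 200 μM and that of Tnfrsf1a to 400 μM. The means of Lrp1, Gclc, Slc7a11, Txnrd1 and Mt1 were nearest to Ctrl. Of genes outside the panel, Asns, Slc7a5 and Psmd11 were also nearest to Ctrl. The hemeHpx means of Gclc, Asns, Slc7a5 and Psmd11 lay below Ctrl and every heme-albumin dose. Neighbouring doses differed little for many of these genes, and no test of the nearest dose was made.

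**Figure D5:**
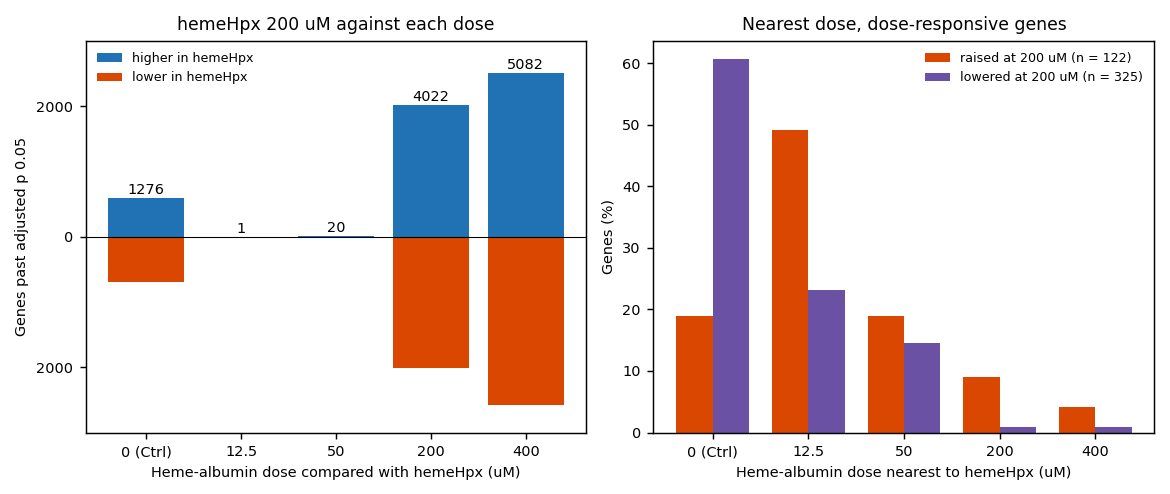
Left, genes past an adjusted p of 0.05 between hemeHpx 200 μM and control or each heme-albumin dose, higher in hemeHpx above the line and lower below it. The totals are 1276, 1, 20, 4022 and 5082. Right, the share of genes raised (122) or lowered (325) by 200 μM heme-albumin whose hemeHpx mean is nearest to each dose. The tallest bars are 49.2% at 12.5 μM for raised genes and 60.6% at control for lowered genes. Genes whose hemeHpx mean lay on the other side of control are included, 15 raised and 143 lowered.

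Against Ctrl, 1276 genes (8.2%) differed in hemeHpx, 72 (0.463%) at 50 μM heme-albumin and 7 (0.045%) at 12.5 μM. The count for hemeHpx was 109 after a correction for GC content and transcript length, 277 with no filter on low counts and 1990 with DESeq2. The calls of single genes against Ctrl given here are from the fit without that correction, and whether each holds with it was not tested. The mean log2 value of the correction, hemeHpx minus 50 μM heme-albumin, ran from -0.054 in the first of 10 GC bins to 0.096 in the last. That trend is not the one between hemeHpx and Ctrl.

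Cell type markers did not pass the test between hemeHpx and 50 μM heme-albumin, but several lists leaned to 1 side. The 12 neuron markers had a median difference of 0.46, with summed levels of 557 to 930 CPM in hemeHpx (median 760.0) and 535 to 1403 CPM at 50 μM (median 628). The 17 neuropeptide genes had a median of 0.42, and their summed level had a median of 98.1 CPM in hemeHpx and 41.5 CPM at 50 μM. Without heme-albumin 50 μM replicate 8 the neuropeptide median was 1.13, and 1 of the 17 was called higher, beside 105 of 15568 genes in that fit. That library had the highest neuron markers of its group, so this value is no separate result. The 6 choroid plexus and ependyma markers were at a summed median of 396 CPM and 189 CPM, and the 12 microglia markers at 1922 CPM and 1346 CPM, with ranges that overlapped in each case. For neurons, neuropeptides and microglia the hemeHpx median was above that of every other batch 1 group. The highest of those others were 655 CPM (200 μM), 50.3 CPM (400 μM) and 1477 CPM (Ctrl). For choroid plexus and ependyma the 400 μM median was higher, at 417 CPM. All 17 proliferation genes had a negative difference, with a median of -0.29, 7 of them at an unadjusted p under 0.05 and 0 called, beside 49.3% of all genes negative and 13.1% under that p. None of these markers was at 0 in all libraries of either group. Their part in the differences of Acan and Vamp1, which neurons express, was not tested.

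Replicate 8 of heme-albumin 50 μM had the highest neuron markers and was left out because that gave the most calls. Omission of replicate 3 of that group gave 4. Without replicate 8, 146 of 15568 genes (0.938%) differed, 105 higher and 41 lower in hemeHpx, and these held all 20 of the genes above. Among the added genes were Syp, a synaptic vesicle protein (0.94, adjusted p = 0.0273), and Eno2, the neuronal enolase (0.68, adjusted p = 0.0149), whose values with all libraries were 0.55 (adjusted p = 0.368) and 0.48 (adjusted p = 0.313, edgeR). Both were chosen after their values were seen. Omission of the library with the highest neuron markers lowers neuron genes in its group. The shift of such genes towards hemeHpx in this fit therefore follows from the choice of library and is no separate result. The median difference of the neuron markers without replicate 8 was 0.76 and 0 of 12 were called. In that fit 3 of the 18 NRF2-inducible enzymes and 4 of the 19 glutathione genes were lower, beside 41 of 15568 genes. No gene passed a test of whether the difference between hemeHpx and 50 μM heme-albumin depended on sex (0 called, 1430 at an unadjusted p under 0.05, smallest adjusted p = 0.529, edgeR). In the 10 male libraries alone Gclm was lower in hemeHpx (-0.52, adjusted p = 0.0154), and in the 10 female libraries alone its value was -0.39 (adjusted p = 0.317, edgeR), a difference between the sexes that the interaction test did not call.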

How the data were processed

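Polyadenylated RNA of mouse brain slice cultures was sequenced after 24 h of treatment. The authors deposited raw read counts per gene, made with featureCounts on GRCm39 per the labels, with 1 table of counts a library, and the aligner, the annotation and the use of strand in counting are not given in the sources used here. Reads of overlapping genes may therefore not be told apart. Groups were taken from the treatment tags. The titles of the hemeHpx libraries name haptoglobin, whereas the tags, the library names and the methods give hemopexin, which was followed. All 60 libraries of batch 1 entered 1 fit, and 128 libraries of the series were not used. Depth is given with the results, and precision is given as standard errors and intervals.

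Genes were kept by filterByExpr (smallest count 10, smallest total 15), which left 15554 of 25655 listed, scaled by TMM and tested with edgeR 4.0.16 in R 4.3.3 by the quasi-likelihood F test. P-values were adjusted over all genes by Benjamini-Hochberg, with a threshold of 0.05. The standard error was the log2 fold change over the square root of F, and 95% intervals used t quantiles. Fold changes are fitted log2 values, and nearest doses used mean log2 CPM with a prior count of 2. DESeq2 1.42.0, limma 3.58.1 (voom) and other settings were alternatives. On simulated counts for 15465 genes in the comparison of hemeHpx with 50 μM heme-albumin, calls were made for 36% of genes given a log2 change of 0.25, 80% at 0.5 and 92% at 1, and 10 of 15265 unchanged genes were called. The simulated libraries were drawn independently from a shared mean profile, with no outlying library and no GC trend. Changed genes had a mean of at least 1 CPM, so these shares may not hold for the real libraries. The labels do not say that libraries came from separate animals, so p-values measure the spread between these samples, which may be technical.

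The genes and lists were chosen with earlier results of these data known. Named genes were a fixed panel, the genes of largest change in each direction among those called at a mean of at least 1 CPM, those of smallest p, and up to 4 of smallest p from each list. Adh7, Adpgk, Gm37498, Atf3, Syp and Eno2 were added after their values were seen, as were the promoter motifs. One gene that the rule names is counted but not reported here. Symbols came from GENCODE names matched by Ensembl identifier (25600 of 25655), and promoters from RefSeq on GRCm38.p6, a different build from that of the counts.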

Additional observations from a re-analysis of the deposited data

Results flagged for a closer look

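Among 86 sets of 10 libraries, 5 (5.81%) held a library at 1 end whose gap to the next, over the range of the group on the log2 scale, was above Dixon's 95% critical value, and chance alone flags about 1 in 20. Gpr84, a receptor of activated microglia, was set apart at its highest library in both groups, replicate 4 of heme-albumin 50 μM (gap 0.556, 14.1 CPM against a group median of 2.98) and replicate 4 of hemeHpx (gap 0.616, 14.1 CPM against 2.86). Alas1, the first enzyme of heme synthesis, was also highest in replicate 4 of hemeHpx (gap 0.468, 73.6 CPM against 55.2). Galnt16 was highest in replicate 1 of hemeHpx (gap 0.538, 81.4 CPM against 69.96). In heme-albumin 50 μM, Adpgk was lowest in replicate 2 (gap 0.512, 41.1 CPM against 46.9).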

How the results depend on the processing

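The 20 genes between hemeHpx and heme-albumin 50 μM became 33 with DESeq2, 10 when only the 20 libraries were fitted, 48 with GC and length correction, 1 (Gclm) in male libraries alone (1024 at an unadjusted p under 0.05) and 0 in female libraries alone (2439). Leaving out 1 library at a time gave 4 to 146, with 4 without heme-albumin 50 μM replicate 3, 8 without replicate 4, 32 without replicate 2, 146 without replicate 8, and 12 without hemeHpx replicate 1. The codes in the library names, which carry the sex and recur across groups, were not treated as pairs. The labels do not say what they mark, and 1 code stands for 2 libraries in each of the groups compared. Of 11 pairs with the same code, 3 had deviations correlated above 0.1, beside 41 of 89 other pairs, and 2 of 10 libraries correlated best with their own code. Correlations of the other pairs ran from -0.74 to 0.671, so such correlations say little about pairing. Whether they mark a shared source is not settled by this. With a replicate block by that code the count was 99, all 20 genes among them, with the block and GC and length correction 263, and with a block by title number 5. Against 12.5 μM the 1 gene became 6 with DESeq2, 0 with no filter (2147 at an unadjusted p under 0.05), 22 with the replicate block and 4 with GC and length correction. Against Ctrl, 1276 became 1990, 277, 3706 and 109 under the same settings, and for 50 μM heme-albumin against Ctrl 72 became 198 with the block. The share of genes nearest to Ctrl, 49.2% over all 447, was 31% for genes called at 400 μM and 55.4% with GC and length correction, that nearest to 12.5 μM was 25.4% with the correction against 30.2%, and that nearest to 50 μM was 20.3% for genes called at 400 μM against 15.7%. Of the values of named genes, 1203 kept their side of the threshold, 181 lost a call, 33 gained one and 0 changed sign while called. Gclm, Slc7a11, Eprs and Psmd11 were called without each of the 20 libraries in turn, whereas Hspa9 was called in 5 of those 20 fits, Apcdd1 and Gm37498 in 6, Adpgk and G6pdx in 11, Slc7a5 in 12, Nipal3 in 13, Slc7a1 and Vamp1 in 14, and the other reported genes in 15 to 19. Gclm was called in 12 of 13 other alternatives and Gm37498 in 5. Alas1 was called with the replicate block (adjusted p = 0.0348, edgeR). The cause of these shifts was not tested.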
